A study of Mus musculus with 21 samples.

Results

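The IGF axis was followed through 10 genes, taken by name from the array annotation: the ligand Igf1, the receptors Ghr and Igf1r, the complex subunit Igfals, and the binding proteins Igfbp1 to Igfbp6. They were 10 of 37074 names on the array and were read by 21 probes. The cells were female C57BL/6 mouse hepatocytes and the chemically induced liver progenitors (CLiPs) grown from them. CLiPs were profiled in their first passage (P1) and late, in passages 11 and 12. Late replicate 3 was passage 11, and the other late replicates were passage 12. The groups were late induced, late uninduced and late day 0 CLiPs, P1 induced, P1 uninduced and P1 day 0 CLiPs, and freshly isolated hepatocytes, with 3 arrays each. Induced cells had 8 days of oncostatin M, a cytokine of the interleukin-6 family, with dexamethasone, a synthetic glucocorticoid. Uninduced cells had 8 days without them, and day 0 cells were taken before either. The labels do not say whether the replicates were separate animals or cultures, so each p-value here covers only sample-to-sample spread, which may be technical. One fresh array carries a P1 passage in its labels and was kept as fresh, as its title says.

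In liver, growth hormone acts through its receptor, encoded by Ghr, and STAT5 to drive transcription of Igf1 and Igfals. IGF-1 circulates mostly in a ternary complex with IGFBP-3 and the acid-labile subunit encoded by Igfals, and it signals through the type 1 IGF receptor, of which mature hepatocytes have little. The binding proteins hold IGFs away from the receptor and, in some settings, deliver them. Insulin represses Igfbp1, and glucocorticoids raise it.

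A level below is the log2 processed signal of a probe minus the 75th percentile of its array, so 0 is that percentile. Where a gene had several probes, the one with the highest mean of the 21 arrays was used. Levels of different probes are not comparable. Differences between groups can also depend on the probe, as they did for Igf1. A difference was called at an adjusted p under 0.05 (limma, Benjamini-Hochberg over all genes tested) and at least 2-fold, and only called genes are said to have risen or fallen. Where a probe was not well above background on any array of a group, the fold is given as a minimum, set by the weakest measured signal on those arrays. These are bulk RNA samples, in which fewer cells of a type and less RNA per cell cannot be told apart.

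The late arrays came from another scanner and Feature Extraction version than the fresh and P1 arrays, so a difference in level between late and the other cells cannot be told apart from the scan. Effects within the late arrays, and within the others, do not cross it. The late effect minus the P1 effect is free of the scan only where the scan acts alike on induced and uninduced arrays. Fresh arrays lay on slides 1, 2 and 3 and P1 arrays on slides 4 and 5. No slide held both, so a difference between P1 and fresh cells cannot be told apart from the slide. The 75th percentile signal was 881 to 1241 on late, 466 to 789 on P1 and 291 to 332 on fresh arrays. Between 46.1% and 60.5% of an array's probes exceeded background clearly. All 7 hepatocyte markers of the list (Alb, Ttr, Apoa1, Hnf4a, Cyp3a11, Cps1 and Tat) were well above background on every fresh array, where their summed linear level was 2310 to 2720. The same sum was 192 to 424 in late induced, 149 to 207 in late uninduced, 36.8 to 70.3 in late day 0, 656 to 817 in P1 induced, 369 to 428 in P1 uninduced and 428 to 608 in P1 day 0 CLiPs.

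The probes of the members are 60 bases long, and 4 of them are shown, since a level is the signal of such a stretch. Positions are those of the array annotation, on mm9. The Ghr probe A_52_P680941 (chr15:3283509-3290961, minus strand) covers 7453 bases of the genome with its 60, so it crosses an intron. The probes of Igfals (A_51_P277088, chr17:25018251-25018310, plus strand) and Igfbp2 (A_55_P2056729, chr1:72898677-72898736, plus strand) are the only ones of their genes. Of Igfbp4, A_51_P398971 (chr11:98909591-98909650, plus strand) is the second probe. The levels and tests below were read by other probes for these genes, A_51_P499854 for Ghr and A_52_P257502 for Igfbp4.
Ghr: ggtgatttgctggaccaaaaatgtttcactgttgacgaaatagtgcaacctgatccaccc
Igfals: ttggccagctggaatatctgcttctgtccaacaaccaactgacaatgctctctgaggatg
Igfbp2: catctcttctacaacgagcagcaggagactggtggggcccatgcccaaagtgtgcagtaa
Igfbp4: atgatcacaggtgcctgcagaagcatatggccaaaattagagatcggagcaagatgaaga

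Promoters are shown for Igfbp1 and Igfals, as genes controlled by the hormones of this axis. They are the 250 bases before the gene start in RefSeq on GRCm38.p6, for Igfbp1 chr11:7197537-7197786 and for Igfals chr17:24877594-24877843, both on the plus strand. All 10 members matched that table, with 14 promoters. The capitals mark matches on either strand to the motifs searched: the STAT element TTCNNNGAA, the glucocorticoid half-site AGAACA and the core of the insulin response element, CAAAACA. The half-site in the Igfals promoter reads TGTTCT, since it lies on the minus strand. A palindromic HNF1 site was also searched.
Igfbp1: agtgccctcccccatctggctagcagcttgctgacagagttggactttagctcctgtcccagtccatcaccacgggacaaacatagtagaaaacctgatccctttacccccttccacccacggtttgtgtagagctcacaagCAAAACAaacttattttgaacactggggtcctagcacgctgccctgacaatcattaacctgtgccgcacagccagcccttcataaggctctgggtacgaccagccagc
Igfals: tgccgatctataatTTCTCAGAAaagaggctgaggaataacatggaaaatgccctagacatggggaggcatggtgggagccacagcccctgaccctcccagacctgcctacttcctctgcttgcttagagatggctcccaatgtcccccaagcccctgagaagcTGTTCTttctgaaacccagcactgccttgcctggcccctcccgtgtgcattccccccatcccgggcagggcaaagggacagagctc

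Of the 10 members, 1 had CAAAACA in such a window (Igfbp1, at -108 from the start), against 5.56% of 32851 promoters. The STAT element was in 1 member, Igfals, in 2 of its promoters (at -236 and -58), against 7.02% of all promoters. The half-site was in 2 members, Igfals and Igfbp2, against 16.1%, and the HNF1 site in none of them and in 0.0335% of all. None of these matches overlapped another, and they describe letters only. In the same build, Igfbp1 and Igfbp3 lie 3539 bases apart on chromosome 11, and Igfbp2 and Igfbp5 lie 5590 bases apart on chromosome 1, each pair on opposite strands.

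Igf1, the ligand, was far lower in every CLiP group than in fresh hepatocytes, and its probes did not move alike. The probe chosen by the highest mean, A_55_P2085979 (chr10:87378456-87378515), had levels of 0.34, 0.64 and 0.34 in late induced, 0.23, 0.32 and 0.16 in late uninduced and 0.24, 0.30 and 0.25 in late day 0 CLiPs. It had 1.04, 0.87 and 1.06 in P1 induced, 0.85, 0.74 and 0.76 in P1 uninduced and 0.80, 0.83 and 0.79 in P1 day 0 CLiPs, against 2.86, 2.95 and 2.58 in fresh hepatocytes. All CLiP arrays lay below all fresh arrays and differed little from one another. By this probe Igf1 fell in P1 day 0 CLiPs against fresh hepatocytes (log2 fold change -1.99 ± 0.11 (SE), adjusted p = 2.4e-08), and neither P1 induction (0.21 ± 0.11, adjusted p = 0.14) nor late induction (0.20 ± 0.10, adjusted p = 0.21) was called.

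The probe A_51_P147942 (chr10:87393516-87393575), annotated to another Igf1 transcript, was the highest in any one group and moved far more. It was taken as an alternative after its values were seen. Its levels were -2.22, -3.24 and -0.16 in late induced, 0.24, -0.62 and 0.69 in late uninduced and -1.70, -2.07 and -1.44 in late day 0 CLiPs. They were 2.13, 1.99 and 2.22 in P1 induced, -3.72, -3.53 and -5.19 in P1 uninduced and -0.41, -0.70 and -0.95 in P1 day 0 CLiPs, against 7.95, 7.87 and 7.75 in fresh hepatocytes. The P1 groups did not overlap, and only the third P1 uninduced array was not well above background.

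By that probe Igf1 was 373-fold lower in P1 day 0 CLiPs than in fresh hepatocytes (adjusted p = 2.7e-09) and a further 11.0-fold lower after 8 uninduced days (log2 -3.46 ± 0.35, adjusted p = 4.8e-05). P1 induction raised it 76.6-fold over uninduced cells (log2 6.26 ± 0.35, adjusted p = 3e-07), which left it 53.6-fold below fresh hepatocytes (log2 -5.74 ± 0.35). In late CLiPs the induced level was not called against the uninduced one (log2 -1.98 ± 0.71, adjusted p = 0.091). Without late induced replicate 3, which lay on a slide of its own, that difference was -2.83 and called (adjusted p = 0.0071). The late induction effect minus the P1 one was -8.23 ± 0.81 (adjusted p = 5.9e-06), and leaving out each array in turn gave -9.09 to -7.55. The third Igf1 probe, A_52_P306327, was well above background on 1 late induced and 3 late uninduced arrays, and on 2 P1 induced and no P1 uninduced arrays, and was not tested.

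**Figure D1:**
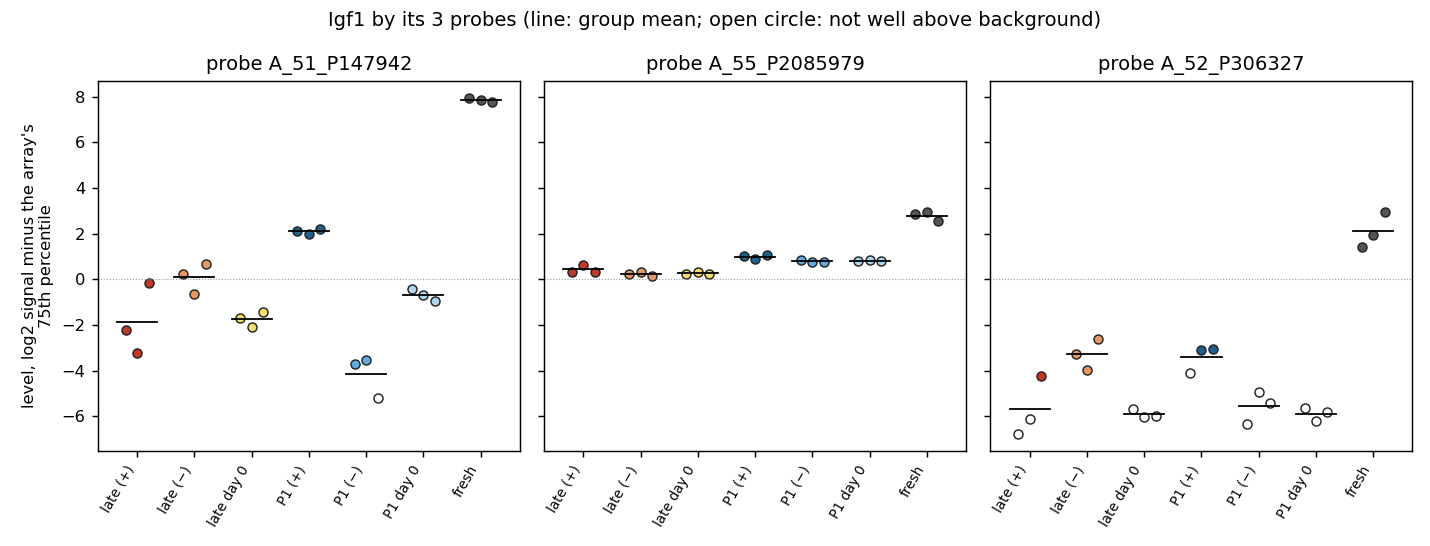
Level of Igf1 (log2 signal minus the array's 75th percentile) on each of the 21 arrays by its 3 probes, with a line at the mean of each group of 3 and open circles where the probe was not well above background. The left probe lies near 2 in P1 induced and near -4 in P1 uninduced CLiPs, while the middle probe stays between 0.16 and 1.06 in all CLiPs.

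The growth hormone receptor fell in CLiPs and was partly regained by P1 induction. Ghr had levels of 0.42, 0.62 and 1.13 in late induced, 1.25, 1.21 and 1.14 in late uninduced and 0.88, 1.09 and 0.06 in late day 0 CLiPs. The levels were 2.02, 2.23 and 2.43 in P1 induced, 0.96, 1.01 and 0.91 in P1 uninduced and -0.04, 0.01 and 0.25 in P1 day 0 CLiPs, against 5.31, 5.65 and 5.39 in fresh hepatocytes. The fresh and P1 groups did not overlap, and all late groups lay below P1 induced.

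In P1 day 0 CLiPs Ghr was 41.5-fold lower than in fresh hepatocytes (log2 -5.38 ± 0.13, adjusted p = 6.9e-11). P1 induction raised it 2.41-fold (adjusted p = 2.5e-05), to 9.34-fold below fresh hepatocytes (adjusted p = 5.6e-09). The change over 8 uninduced P1 days passed the p threshold but not 2-fold (0.88 ± 0.13, adjusted p = 6e-04). In late CLiPs induction gave -0.47 ± 0.27 (adjusted p = 0.27), and the late effect minus the P1 effect was -1.74 ± 0.31 (adjusted p = 0.00078). All 4 Ghr probes had this sign, with -2.72, -2.56 and -1.80 by the other 3, including the intron-crossing one.

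Igf1r, the receptor of IGF-1, moved opposite to its ligand in all of the calls against fresh cells. Its levels were 0.99, 1.18 and 0.68 in late induced, 1.76, 1.94 and 1.82 in late uninduced and 2.38, 2.55 and 2.24 in late day 0 CLiPs. They were -0.68, -0.38 and -0.88 in P1 induced, 1.69, 2.05 and 2.46 in P1 uninduced and 1.78, 1.98 and 1.83 in P1 day 0 CLiPs, against -2.80, -2.63 and -3.36 in fresh hepatocytes. The third fresh array was not well above background, and every CLiP array lay above all fresh arrays.

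Igf1r was 27.7-fold higher in P1 day 0 CLiPs than in fresh hepatocytes (log2 4.79 ± 0.23, adjusted p = 8.9e-09). P1 induction lowered it 6.57-fold (log2 -2.72 ± 0.23, adjusted p = 5.2e-06), to a level still 4.87-fold above fresh hepatocytes (adjusted p = 5.7e-06). Late induction gave -0.89 ± 0.14 (adjusted p = 0.0047), under 2-fold, which passed 2-fold without late induced replicate 2 (-1.01, adjusted p = 0.006). The late effect minus the P1 effect was 1.83 ± 0.29 (adjusted p = 0.00033) by the chosen probe and 1.85 by A_51_P318365. The other 2 Igf1r probes had the same sign, but were well above background on only 1 and none of the P1 induced arrays.

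Igfals, which encodes the acid-labile subunit, fell in CLiPs and was partly regained by P1 induction. It had levels of -4.70, -4.29 and -3.05 in late induced, -6.48, -5.73 and -4.73 in late uninduced and -6.91, -7.12 and -6.92 in late day 0 CLiPs. The levels were -1.97, -2.11 and -1.70 in P1 induced, -3.07, -3.99 and -3.65 in P1 uninduced and -4.20, -3.94 and -3.36 in P1 day 0 CLiPs, against 2.86, 3.62 and 3.15 in fresh hepatocytes. Only 1 array each of P1 uninduced, P1 day 0 and late uninduced cells, 2 of late induced and none of late day 0 cells were well above background.

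In P1 day 0 CLiPs Igfals was 132-fold lower than in fresh hepatocytes (log2 -7.04 ± 0.28, adjusted p = 2.3e-09). P1 induction raised it 3.13-fold (adjusted p = 0.00084), leaving it 35.2-fold below fresh hepatocytes (adjusted p = 5.1e-08). It was not tested within the late arrays, since no late group had it well above background on all arrays. In the fit of all 21 arrays its late induction effect was 1.63 and differed from the P1 effect of 1.64 by -0.01 ± 0.60 (adjusted p = 0.99). It could enter that fit only through the fresh and P1 induced groups. Only 2 late induced, 1 late uninduced and 1 P1 uninduced array were well above background, so how alike the effects are is not measured.

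**Figure D2:**
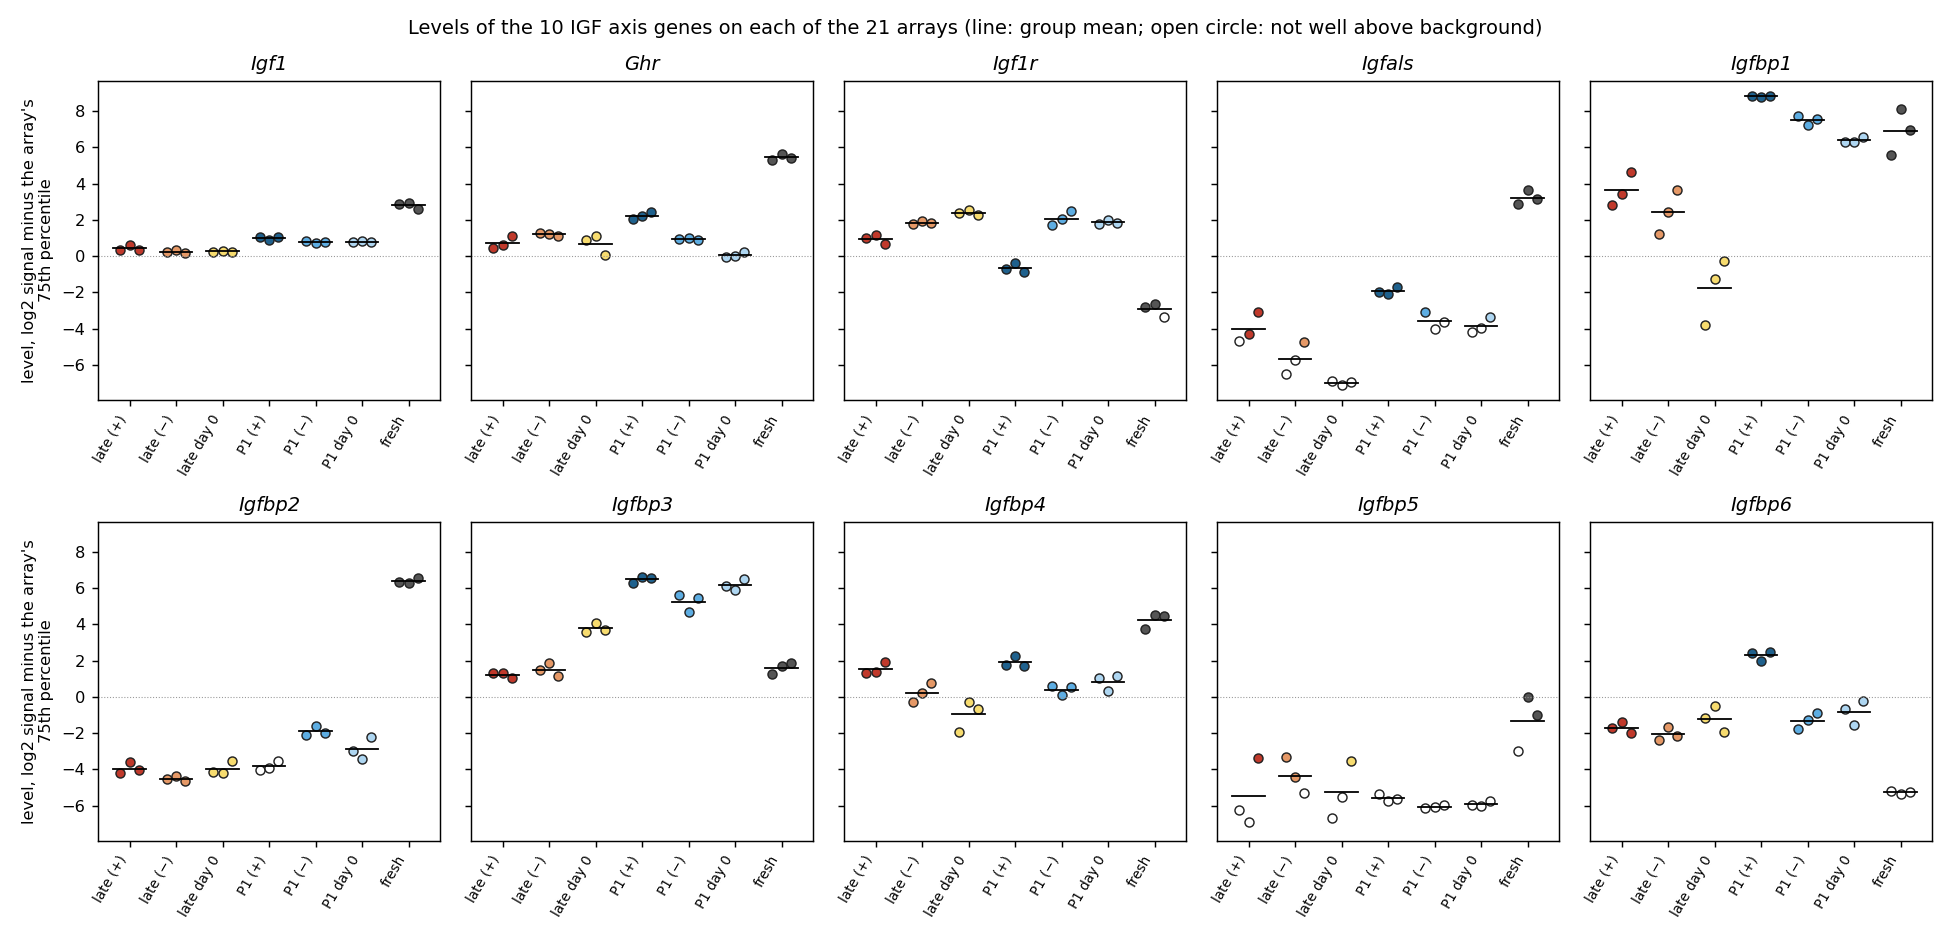
Level of each of the 10 genes (log2 signal minus the array's 75th percentile) on each array, 3 arrays to a group, with a line at the group mean and open circles where the probe was not well above background. Igf1, Ghr, Igfals, Igfbp2 and Igfbp4 are highest in fresh hepatocytes, while Igf1r, Igfbp3 and Igfbp6 lie higher in P1 day 0 CLiPs than in fresh hepatocytes.

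Igfbp1, the insulin-repressed binding protein, kept a high level in P1 CLiPs and was lower in late ones. Its levels were 2.81, 3.42 and 4.66 in late induced, 1.22, 2.46 and 3.65 in late uninduced and -3.77, -1.26 and -0.27 in late day 0 CLiPs. They were 8.82, 8.77 and 8.85 in P1 induced, 7.70, 7.22 and 7.56 in P1 uninduced and 6.30, 6.30 and 6.57 in P1 day 0 CLiPs, against 5.59, 8.13 and 6.94 in fresh hepatocytes. The fresh arrays spread over more than the P1 day 0 and P1 uninduced arrays together, and all late arrays lay below all P1 arrays.

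P1 induction raised Igfbp1 2.50-fold at the edge of the threshold (log2 1.32 ± 0.47, adjusted p = 0.042), with no overlap. The call was lost without any single array of either group (adjusted p 0.067 to 0.12), under quantile normalization (0.81, adjusted p = 0.16), with replicate number as a block (adjusted p = 0.054) and with all 21 arrays in the fit (adjusted p = 0.18). Against fresh hepatocytes, P1 induced cells were 3.81-fold higher (log2 1.93, adjusted p = 0.0037), with 1.28 without fresh replicate 1 and 2.55 without fresh replicate 2. P1 day 0 cells were not called (-0.49 ± 0.47, adjusted p = 0.35), but the difference was -1.14 without fresh replicate 1 (adjusted p = 0.0048) and 0.13 without fresh replicate 2. In late CLiPs, 8 uninduced days raised Igfbp1 18.5-fold over late day 0 (log2 4.21 ± 0.96, adjusted p = 0.0082). Late induction gave 1.18 ± 0.96 over uninduced cells (adjusted p = 0.44) and was not called. Both come from the fit without the replicate number, and neither result crossed the threshold with it as a block. The 8-day change was 3.21 and 4.96 without late day 0 replicate 1 and 3, and 4.82 and 3.61 without late uninduced replicate 1 and 3, and stayed called. Late day 0 cells lay 286-fold below P1 day 0 cells (log2 -8.16 ± 0.78, adjusted p = 9.7e-07), across the scan sets, with -7.16 without late day 0 replicate 1 and -8.91 without late day 0 replicate 3.

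Igfbp2, a binding protein of fetal and adult liver, had the largest fitted fall of tested members from fresh hepatocytes to P1 day 0 CLiPs. It had levels of -4.21, -3.62 and -4.03 in late induced, -4.54, -4.36 and -4.63 in late uninduced and -4.16, -4.21 and -3.53 in late day 0 CLiPs. The levels were -4.03, -3.91 and -3.54 in P1 induced, -2.13, -1.58 and -1.99 in P1 uninduced and -2.99, -3.43 and -2.20 in P1 day 0 CLiPs, against 6.33, 6.30 and 6.54 in fresh hepatocytes. None of the P1 induced arrays was well above background, and every CLiP array lay far below every fresh one.

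Igfbp2 was 613-fold lower in P1 day 0 CLiPs than in fresh hepatocytes (log2 -9.26 ± 0.28, adjusted p = 2.5e-10). Unlike Ghr and Igfals, it did not regain level with P1 induction: induced cells were at least 3.1-fold below uninduced ones (adjusted p = 0.00023) and at least 967-fold below fresh hepatocytes (adjusted p = 2.4e-10). With normexp background correction the fall with induction was under 2-fold (-0.90, adjusted p = 0.0028). Late induction gave 0.56 ± 0.21 (adjusted p = 0.11), and the fitted late effect minus the P1 effect was 2.49 ± 0.37 (adjusted p = 0.00023). Since the P1 induced level was at background, the size of that difference is not measured.

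Igfbp3, which encodes the main carrier of IGF-1 in blood, rose in P1 CLiPs. Its levels were 1.30, 1.30 and 1.06 in late induced, 1.49, 1.86 and 1.13 in late uninduced and 3.56, 4.06 and 3.71 in late day 0 CLiPs. They were 6.29, 6.59 and 6.57 in P1 induced, 5.62, 4.67 and 5.45 in P1 uninduced and 6.10, 5.86 and 6.47 in P1 day 0 CLiPs, against 1.28, 1.67 and 1.84 in fresh hepatocytes. Late induced and late uninduced arrays overlapped with fresh arrays, while all P1 arrays lay above them.

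Igfbp3 was 23.3-fold higher in P1 day 0 CLiPs than in fresh hepatocytes (log2 4.54 ± 0.25, adjusted p = 3.2e-08). Its other probe was well above background on all 3 P1 day 0 arrays and on no fresh array. P1 induction raised Igfbp3 2.36-fold over uninduced cells (adjusted p = 0.0024), which fell under 2-fold without P1 uninduced replicate 2 (0.95, adjusted p = 0.0061) and under quantile normalization (0.91, adjusted p = 0.01). The other probe, well above background on all P1 induced and P1 uninduced arrays, gave 0.85, also under 2-fold. In late CLiPs, 8 uninduced days lowered Igfbp3 4.87-fold (log2 -2.28 ± 0.20, adjusted p = 8e-05), and induction gave -0.27 ± 0.20 (adjusted p = 0.39). The late effect of induction minus the P1 effect was -1.51 ± 0.34 (adjusted p = 0.0053), which was not called with the P1 effect taken within slide 4 or slide 5 and the late effect within slide 6 (-1.34, adjusted p = 0.081, and -1.33, adjusted p = 0.088) or as the mean of both probes (-0.95, adjusted p = 0.032), of which the other was not well above background in either late group.

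Igfbp4, a binding protein that restrains IGF action until it is cleaved, fell in CLiPs and had higher levels after induction in both passages. Its levels were 1.33, 1.37 and 1.92 in late induced, -0.26, 0.22 and 0.76 in late uninduced and -1.92, -0.30 and -0.68 in late day 0 CLiPs. They were 1.76, 2.28 and 1.69 in P1 induced, 0.60, 0.09 and 0.52 in P1 uninduced and 1.03, 0.34 and 1.16 in P1 day 0 CLiPs, against 3.75, 4.52 and 4.43 in fresh hepatocytes. Induced and uninduced arrays did not overlap in either passage.

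Igfbp4 was 10.5-fold lower in P1 day 0 CLiPs than in fresh hepatocytes (log2 -3.39 ± 0.27, adjusted p = 7e-07). P1 induction raised it 2.84-fold (log2 1.51 ± 0.27, adjusted p = 0.0012), to 5.00-fold below fresh hepatocytes (adjusted p = 2.1e-05). In late CLiPs the induction effect was 1.30 ± 0.43 (adjusted p = 0.071), and that of 8 uninduced days was 1.21 ± 0.43 (adjusted p = 0.05). With the replicate number as a block, both late differences were called (adjusted p = 0.023 and 0.015). The late and P1 effects of induction differed by -0.20 ± 0.53 (adjusted p = 0.85), and the shown second probe gave 1.43 in P1 and 1.23 in late cells.

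Igfbp6, a binding protein that prefers IGF-II, had its highest levels in P1 induced CLiPs. It had levels of -1.73, -1.38 and -1.98 in late induced, -2.37, -1.66 and -2.16 in late uninduced and -1.18, -0.52 and -1.92 in late day 0 CLiPs. The levels were 2.43, 1.97 and 2.47 in P1 induced, -1.79, -1.26 and -0.89 in P1 uninduced and -0.66, -1.56 and -0.22 in P1 day 0 CLiPs, against -5.17, -5.34 and -5.25 in fresh hepatocytes, none well above background. P1 induced arrays lay above all other arrays, and the other CLiP arrays lay between -2.37 and -0.22.

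Igfbp6 was at least 5.56-fold higher in P1 day 0 CLiPs than in fresh hepatocytes (adjusted p = 2.6e-07) and at least 47.8-fold higher in P1 induced CLiPs (adjusted p = 6.6e-09). P1 induction raised it 12.2-fold over uninduced cells (log2 3.60 ± 0.32, adjusted p = 7.5e-06). Late induction gave 0.36 ± 0.35 (adjusted p = 0.51), and the late effect minus the P1 effect was -3.24 ± 0.50 (adjusted p = 0.00028).

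Igfbp5, a binding protein of many mesenchymal cells, was not tested, since no group had its probe well above background on all arrays. The levels were -6.21, -6.87 and -3.37 in late induced, -3.34, -4.43 and -5.28 in late uninduced and -6.67, -5.51 and -3.52 in late day 0 CLiPs. The P1 arrays lay between -6.12 and -5.33, all dim, against -2.97, -0.03 and -0.99 in fresh hepatocytes, 2 of which were well above background. Set from the fresh mean, the minimum fall was 5.89-fold to P1 day 0 and 4.59-fold to P1 induced cells. That mean includes the dim fresh array at -2.97, so these are not firm bounds. The other Igfbp5 probe, A_66_P101782, was not well above background on any array.

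**Figure D3:**
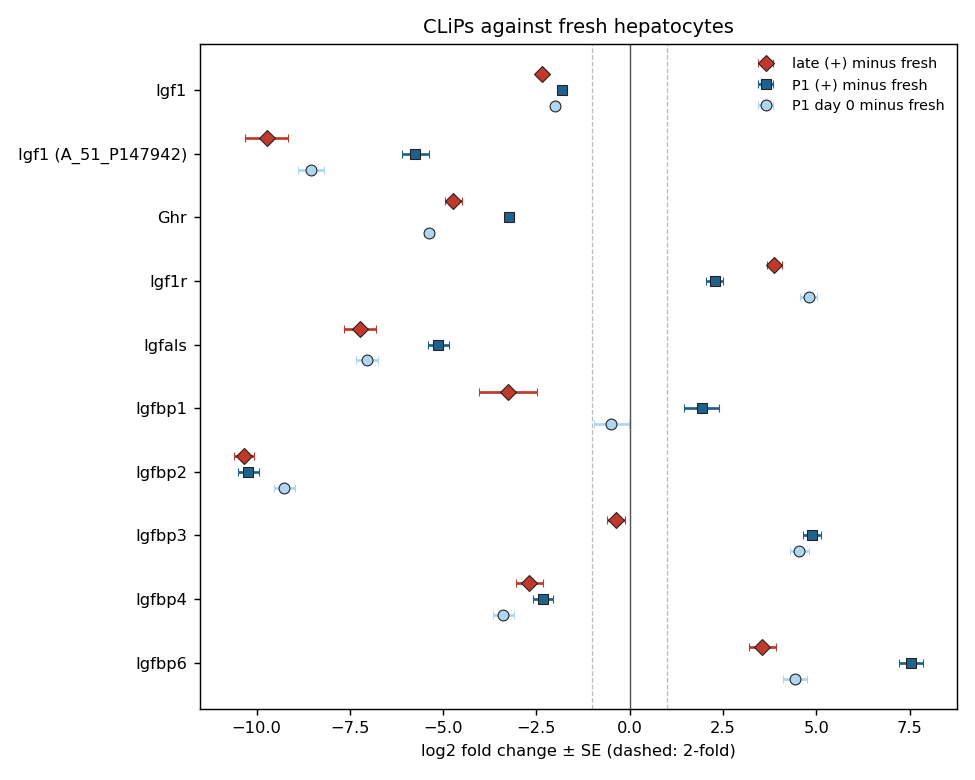
Log2 fold change with its standard error of late induced, P1 induced and P1 day 0 CLiPs against fresh hepatocytes (3 arrays each) for the 9 tested genes, with Igf1 also by its probe A_51_P147942, and dashed lines at 2-fold. The points are fitted values: those of Igfbp6, dim in fresh hepatocytes, and of Igfbp2 in P1 induced CLiPs stand for minimum folds (at least 47.8-fold higher for Igfbp6 in P1 induced CLiPs). Ghr lies to the left in all 3 comparisons and Igf1r to the right. The late comparison crosses the scan sets, and all 3 compare arrays of different slides.

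Of the 9 members tested in P1 day 0 CLiPs against fresh hepatocytes, 3 rose (Igf1r, Igfbp3 and Igfbp6), 5 fell and Igfbp1 was not called, and among all 20639 tested genes 25.4% rose and 25.2% fell, 50.6% in all. In P1 induced CLiPs against fresh hepatocytes 4 rose and 5 fell, against 20.3% and 18.8% of all genes, 39.1% in all. Late induced CLiPs against fresh hepatocytes had 2 up (Igf1r and Igfbp6) and 6 down, against 24.7% and 26.6% of 22366 genes, 51.3% in all. The members' median log2 change was -1.99, -1.81 and -2.69 in these comparisons, and that of all genes -0.01, 0.04 and -0.01. These comparisons share the fresh arrays. With normexp background correction Igfbp6 in late induced against fresh cells was under 2-fold (0.87, adjusted p = 0.0082).

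P1 induction raised 6 members (Ghr, Igfals, Igfbp1, Igfbp3, Igfbp4 and Igfbp6) and lowered 2 (Igf1r and Igfbp2) of 9, while 9.68% of all tested genes rose and 9.01% fell, 18.7% in all. The median was 1.27 for the members and 0.05 for all genes. With Igf1 read by its probe highest in fresh hepatocytes, 7 rose. Within each of the 2 slides that held the P1 arrays (slides 4 and 5), 5 members were called, and Igfbp1, Igfbp3 and Igfbp4 were not, with effects of 1.42 and 1.46 for Igfbp4 (adjusted p = 0.059 and 0.053). Over 8 uninduced P1 days none of the 9 was called by limma, 4 of them with an unadjusted p under 0.05 (9360 of all 20639 genes had one), against 6.28% of genes up and 4.87% down, 11.1% in all. Without P1 uninduced replicate 1, Igfbp2 (1.08) and Igfbp3 (-1.09) were called there, and the same 2 without P1 uninduced replicate 3, Igfbp3 without P1 day 0 replicate 2 and Igfbp2 without P1 day 0 replicate 3.

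In late CLiPs, induction called none of 8 tested members by limma, 3 of them with an unadjusted p under 0.05 (7014 of all 21341 genes had one), against 2.94% of genes up and 3.06% down, 5.99% in all. With the replicate number as a block 1 member, Igfbp4, was called. Over 8 uninduced late days 1 rose (Igfbp1) and 1 fell (Igfbp3), against 8.18% and 6.37%, 14.5% in all. Igfbp4 was also called there without late uninduced replicate 1 (1.46) or late day 0 replicate 2 (1.54), and Igfbp6 without late day 0 replicate 3 (-1.22). The difference of the induction effects was called for 5 of 9 members: it was positive in 2 (Igf1r and Igfbp2) and negative in 3 (Ghr, Igfbp3 and Igfbp6), against 4.73% and 5.21% of genes, 9.93% in all. Late day 0 against P1 day 0 cells had none up and 5 down (Igfals and Igfbp1 to Igfbp4), of which Igfals was dim in late day 0 cells and had a minimum fold of only 1.94, against 4.33% up and 9.10% down, 13.4% in all, and a random block for the slide left Igfbp2 and Igfbp4 uncalled (adjusted p = 0.051 each). Igfbp2 was under 2-fold there without late day 0 replicate 1 or 2 or P1 day 0 replicate 3 (-0.997, -0.97 and -0.76). The same held under quantile normalization (-0.86) and with normexp background correction (-0.82).

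**Figure D4:**
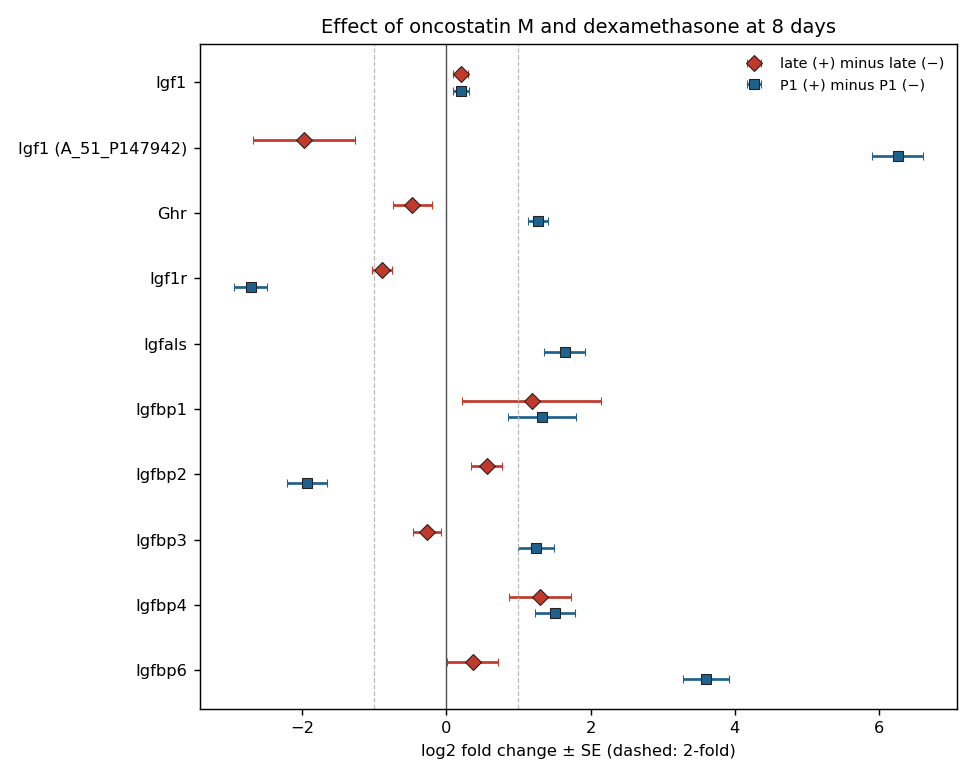
Effect of 8 days of oncostatin M and dexamethasone (induced minus uninduced, log2 fold change with its standard error, 3 arrays a group) in late and P1 CLiPs, with dashed lines at 2-fold. Igfals was not tested in late cells, and the P1 value of Igfbp2 is fitted to a dim induced level. Igf1 by its probe A_51_P147942 lies at -1.98 in late and 6.26 in P1 cells, and Igfbp1 and Igfbp4 lie close together in both.

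Other genes of the pathway, 31 in 4 lists, were read in the same fits. Of 30 tested in P1 day 0 CLiPs against fresh hepatocytes, 11 rose and 12 fell, beside 25.4% and 25.2% of all tested genes. Igf2, the fetal ligand, was not well above background on any fresh array and was at least 50.7-fold higher in P1 day 0 CLiPs (adjusted p = 3.7e-11). Among 7 tested IGFBP-related proteins, proteases and inhibitors 6 rose and 1 fell, including Pappa, a protease of IGFBP-4, at least 11.3-fold higher (adjusted p = 1.3e-08), and Igfbp7, which binds IGFs weakly (log2 4.01, adjusted p = 5.2e-08). Of 8 growth hormone signalling genes 1 rose and 4 fell, among them the transducer Stat5b (log2 -2.92, adjusted p = 1e-09) and Prlr, the prolactin receptor (log2 -5.99, adjusted p = 6.4e-11). Of 11 insulin and IGF receptor signalling genes 2 rose and 6 fell, with the adaptor Irs2 at -2.76 (adjusted p = 1.5e-07) and the receptor-binding adaptor Grb10 at least 4.56-fold higher (adjusted p = 2e-09).

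With P1 induction 5 of the 30 rose and 5 fell, beside 9.68% and 9.01% of all tested genes. Stc2, an inhibitor of the pappalysin proteases, had levels of 1.36, 1.52 and 1.65 in P1 induced and -2.74, -2.59 and -1.66 in P1 uninduced cells, with no overlap (log2 3.84, adjusted p = 1e-06). Pappa fell in the same comparison (log2 -1.75, adjusted p = 0.00046), as did Socs2, a feedback inhibitor of growth hormone signalling (log2 -2.68, adjusted p = 0.00076), and Igf2 (log2 -1.25, adjusted p = 0.00021). Late induction called 2 up and 1 down of 29, beside 2.94% and 3.06% of all tested genes. Igf2 had 3.44, 3.86 and 3.42 in late induced cells, against 1.90, -0.49 and 0.29 in late uninduced cells (log2 3.00, adjusted p = 0.0084), and the late effect minus the P1 effect was 4.25 (adjusted p = 0.00011).

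**Figure D5:**
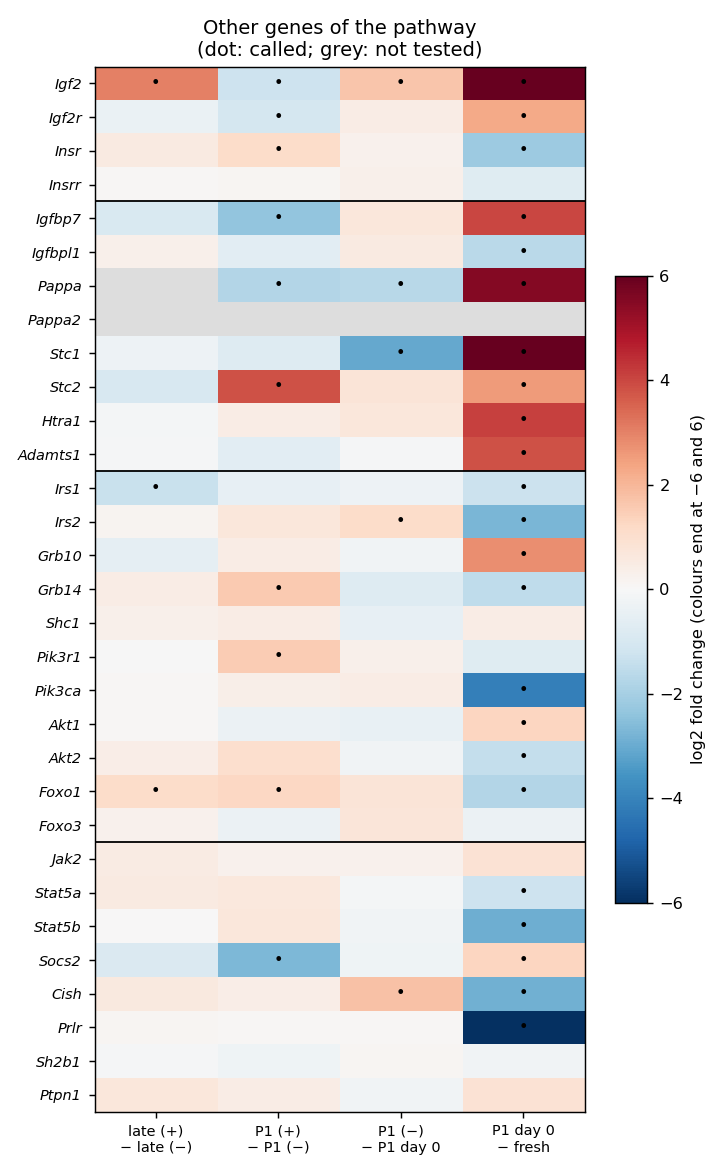
Log2 fold changes of the 31 other pathway genes in 4 comparisons, in the order of the lists (ligands and receptors, IGFBP-related proteins and proteases, insulin and IGF receptor signalling, growth hormone signalling), with a dot where called and grey where not tested. Igf2 rose with late induction and fell with P1 induction, and Pappa2 was not tested anywhere.

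Among the members, levels over the 21 arrays were most alike for Igf1 and Igfbp2 (Pearson r = 0.956) and for Igf1 and Igfals (0.951), and most opposed for Igf1r and Igfals (-0.927). Igf1 was read here by its chosen probe A_55_P2085979, which differed little among CLiPs. By A_51_P147942, Igf1 rose with P1 induction, where Igfbp2 fell. The neighbours Igfbp1 and Igfbp3 had r = 0.434. Outside the members, the genes most like Igf1 were Ugt3a2 (0.992) and Cd4 (0.991), those most like Igfals were Proc and Ece1 (0.982 each), and Prlr was among those most like Igfbp2 (0.981). Ahsg was among those most like Igfbp1 (0.950), and Igfbp6 was most like Fam217b (0.954) and Spidr (0.935). These values describe 7 groups of 3 arrays, which share groups and scan sets.

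Markers of other liver cells moved with some of these results. The 6 endothelial markers summed to 0.384 to 0.502 in late induced, 0.622 to 0.723 in P1 induced and 0.535 to 0.619 in P1 day 0 CLiPs, against 11.4 to 18.8 in fresh hepatocytes, and the defining Kdr and Lyve1 were not well above background on any CLiP array. Of the 6 Kupffer cell markers all were measured in fresh hepatocytes (sum 8.57 to 28.4), while Cd5l and Vsig4 were not above background in any CLiP group. The sum of all 6 was 7.93 to 10.1 in P1 induced, 17.1 to 22.8 in P1 uninduced and 3.43 to 3.74 in P1 day 0 CLiPs, and 1 of the 6 fell with P1 induction. In late induced CLiPs it was 4.08 to 4.51, against 7.38 to 12.8 in late uninduced CLiPs. The 6 stellate cell and fibroblast markers summed to 0.218 to 0.478 in late induced, 0.236 to 0.326 in late uninduced, 44.5 to 89.5 in P1 induced and 6.73 to 34.2 in P1 uninduced CLiPs, against 3.50 to 9.98 in fresh hepatocytes. Of this list, Dcn rose with P1 induction (log2 2.54, adjusted p = 0.013) and Reln fell (log2 -4.08, adjusted p = 2.6e-05), while Lrat and Ngfr were not well above background on any P1 array. The 4 mesothelial markers summed to 3.77 to 7.28 in P1 induced, 5.24 to 13.8 in P1 uninduced and 12.7 to 28.1 in P1 day 0 CLiPs. Their sum was 17 to 56.6 in late day 0 CLiPs and 0.125 to 0.175 in fresh hepatocytes, where none was well above background. In P1 induced and P1 uninduced CLiPs 3 of the 4 were dim, and the 1 tested marker rose in P1 day 0 CLiPs against fresh hepatocytes (log2 9.32). Biliary and progenitor markers, all 5 of which rose in P1 day 0 CLiPs, summed to 395 to 416 there, against 0.993 to 1.76 in fresh hepatocytes. With P1 induction 3 of these 5 fell (Krt19, Krt7 and Epcam) and Spp1 rose, and the sum was 644 to 764 in P1 induced and 400 to 427 in P1 uninduced CLiPs. The part of these cells in the levels of Igf1, Igfbp3, Igfbp5 and Igfbp6 was not tested.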

How the data were processed

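RNA of 21 samples was labelled with Cy3 and hybridised to 1-colour Agilent arrays, per the labels' protocols. Agilent Feature Extraction was version 10.7.3.1 for the late and 11.5.1.1 for the other arrays, and the processed signal is an intensity, background-subtracted and detrended, not scaled between arrays, per the file headers. The authors' deposited tables hold log2 values, which equal the log2 processed signal minus each array's 75th percentile up to a constant, for 56605 probes of the fresh and P1 arrays. For 40786 probes of the fresh and late arrays they are also centred per probe. Control and flagged spots were left out, the signals were put on that scale, and each gene was read by its probe with the highest mean. A gene was tested where every array of 1 or more groups had it well above background. No spot was saturated, and the number of arrays limits the precision.

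The model had a mean for each group and was fitted by limma 3.58.1 (lmFit, eBayes; R 4.3.3) to 12 fresh and P1, 9 late and all 21 arrays, with Benjamini-Hochberg adjustment over all genes tested. Members of the axis were named in every comparison whatever their values, every gene of the lists could be named, and so could the 2 symbols most correlated with a member, of which some are not reported here. The members and lists were chosen with earlier results of these data known. Alternatives were quantile normalization, normexp (offset 50), the mean of all probes, other filters, an eBayes trend, slide or replicate blocks, single arrays left out, one fit of all arrays, the authors' deposited table and, chosen after seeing the data, fits within slides and the probe highest in any one group. Same-numbered late samples deviated together (r 0.255 to 0.553), as did P1 uninduced and day 0 samples (0.205 to 0.457), so the numbers pair these samples. For P1 induced and uninduced samples r was 0.0771 to 0.314 with the same number and -0.291 to 0.0237 with different numbers. The lowest same-numbered pair was split over slides 4 and 5. P1 induced and day 0 samples did not all deviate together (-0.106 to 0.296), nor did fresh and P1 ones. The fits were tested on simulated data. Sequences were read from the array files and from RefSeq on GRCm38.p6, and no mm9 annotation was used here. The packages data.table, version 1.17.8, and statmod 1.5.0 were used, and figures were drawn with Python 3.11.15 and matplotlib 3.10.9.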

Additional observations from a re-analysis of the deposited data

Results flagged for a closer look

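In 6 results the effect of 8 days of oncostatin M and dexamethasone on a member differed between late and P1 CLiPs by the test of the difference itself, the late effect minus the P1 effect in the limma fit of all 21 arrays. Ghr had an effect of -0.47 in late and 1.27 in P1 cells, a difference of -1.74 (adjusted p = 0.00078). For Igf1r the effects were -0.89 in late and -2.72 in P1 cells, a difference of 1.83 (adjusted p = 0.00033). Igfbp2 had 0.56 in late cells and a fall of at least 3.1-fold in P1 cells, whose induced level was not well above background. Its fitted difference was 2.49 (adjusted p = 0.00023), and the size of it is not measured. For Igfbp3 the effects were -0.27 in late and 1.24 in P1 cells, a difference of -1.51 (adjusted p = 0.0053). The Igfbp3 difference was not called within slides 4 and 6 (adjusted p = 0.081) or within slides 5 and 6 (adjusted p = 0.088). As the mean of all probes it was under 2-fold (-0.95). Igfbp6 had 0.36 in late and 3.60 in P1 cells, a difference of -3.24 (adjusted p = 0.00028). Igf1 by its probe A_51_P147942 had -1.98 in late and 6.26 in P1 cells, a difference of -8.23 (adjusted p = 5.9e-06), while its chosen probe gave -0.01 (adjusted p = 0.99). A_51_P147942 was taken as an alternative after its values were seen, so its p-value is not that of a preset choice. Each effect was taken within 1 scanner, but the difference sets late arrays of another scanner against P1 arrays. A scan effect cancels in it only if it is the same for induced and uninduced arrays of a gene, which was not tested.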

How the results depend on the processing

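Of 1358 member values recomputed, 1266 kept their direction and side of the threshold, 29 lost the call, 29 gained one and 34 changed sign. All 34 sign changes were in differences that are reported as not called, and their cause was not tested. Counts below are of called genes or members, with the main count in brackets.

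Under quantile normalization, Igfbp1 was 0.07576 in P1 day 0 against fresh cells and 0.3718 in the late minus P1 induction effect, and 1 member (0) was called over 8 uninduced P1 days. Under normexp, Igf1 was 0.008884 over 8 uninduced P1 days and 0.03034 in the late minus P1 induction effect, 1 member (0) was called for late induction, and 1959 genes (3004) for late day 0 against P1 day 0. With the mean of all probes, 1 member (0) was called over 8 uninduced P1 days, 8 uninduced late days gave Igf1 1.483 and Igf1r 0.005254, and late induction gave Igf1 -1.397 and Igfbp3 0.09446. By the probe highest in any group, 1 member (0) was called over 8 uninduced P1 days, and Igf1 was 1.836 over 8 uninduced late days and -1.975 with late induction.

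Without a filter on dim probes, 7421 genes (3004) were called for late day 0 against P1 day 0 and 21211 (11476) for late induced against fresh. Requiring every array well above background leaves fewer genes to test. It gave 6554 genes (10451) and 4 members (8) for P1 day 0 against fresh, 1064 genes (2301) over 8 uninduced P1 days, 1937 genes (3858) and 4 members (8) for P1 induction, and 4612 genes (8072) and 5 members (9) for P1 induced against fresh. It gave 1070 genes (2222) and 2 members (5) for the late minus P1 induction effect, 1142 genes (3004) and 3 members (5) for late day 0 against P1 day 0, and 6605 genes (11476) and 4 members (8) for late induced against fresh.

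With the slide as random block, 1 member (0) was called over 8 uninduced P1 days and 3 (5) for late day 0 against P1 day 0, and Igf1 was 0.01074 in the late minus P1 induction effect. With the replicate number as a block, 1 member (0) was called for late induction and 3 (2) over 8 uninduced late days, Igfbp4 in both, and 7 (8) for P1 induction, without Igfbp1 (adjusted p = 0.054). It changed no other member's call. With all 21 arrays in one fit, 4 members (2) were called over 8 uninduced late days and 2 (0) for late induction. Igfbp4 gained a call in both. Igfals, not tested within the late arrays, could be tested in this fit. It was well above background on no late day 0, 1 late uninduced and 2 late induced arrays. Within slide 4, 1 member (0) was called over 8 uninduced P1 days, where Igf1r was -0.01219, and 5 (8) for P1 induction. Within slide 5, 1088 genes (2301) were called over 8 uninduced P1 days, where Igfals was -0.2829, and 5 members (8) for P1 induction. Igf1 in the late minus P1 induction effect was 0.001911 within slides 4 and 6 and 0.05125 within slides 5 and 6.

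Leaving out each array in turn gave 0 to 2 called members over 8 uninduced P1 days and 0 to 1 for late induction. Igfbp1 ranged from -1.141 to 0.1255 in P1 day 0 against fresh cells, and Igf1 from -0.05319 to 0.000342 over 8 uninduced P1 days and from -0.06551 to 0.01377 over 8 uninduced late days. In the late minus P1 induction effect the ranges were -0.1054 to 0.04462 for Igf1, -0.4942 to 0.4466 for Igfals, -0.7492 to 0.4677 for Igfbp1 and -0.4537 to 0.05582 for Igfbp4. With 3 arrays a group, members that were not well above background, such as Igfbp5 and the late levels of Igfals, have only bounds or no test.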
